A study of Mus musculus with 4 samples.

Results

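Photothrombotic stroke was compared with sham surgery over 24 brain libraries, 12 stroke and 12 sham, after the effect of angiotensin II infusion had been taken out by an additive model. The mice were male C57BL/6J of 3 to 5 months. NT (normotensive) mice were infused with vehicle. HT (hypertensive) mice received 0.28 mg/kg/day of angiotensin II, a peptide that raises blood pressure. In both, surgery followed on day 7, and tissue was taken on day 28, 21 days after surgery. The 4 groups were named NT + Sham and HT + Sham for the sham-operated mice, and NT + Stroke and HT + Stroke for the others, with 6 numbered libraries each, and all mice were infused for 28 days. Each library was treated as 1 mouse, although the labels describe the groups and not the mice, so *P*-values measure the spread between these libraries. The lesion was placed in prefrontal cortex, at a distance in front of bregma that the labels and the methods give differently. Of the 33981 genes in the joined tables, 17252 had enough counts to be tested, and all of these are the members described here. The question was which genes differed after stroke whatever the blood pressure.

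In a photothrombotic stroke, light activates a dye in the blood of cortical vessels, clots form, and the tissue they supply dies. Over the next weeks microglia, the resident macrophages of the brain, engulf the debris, astrocytes around the lesion enlarge and form a border, and fibroblasts lay down collagen in the core. Neurons in the surrounding cortex may lose synapses or die. In bulk tissue, fewer cells of a type and less RNA per cell cannot be told apart.

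Libraries held 15922919 to 24865998 counts, with similar depth after sham (up to 21378009) and stroke. Levels are given as CPM, counts corrected for scaled library size, as the lowest, highest and median value over 12 libraries. Changes are log2 fold changes of stroke over sham with their standard error (SE), from edgeR's quasi-likelihood test, and a gene was called where its Benjamini-Hochberg adjusted *P* over all genes tested was under 0.05. Neuronal genes of cortex were abundant in every library, with *Slc17a7*, the vesicular glutamate transporter of cortical excitatory neurons, at 1568 CPM or more. Markers of striatum and olfactory bulb were present too, so the tissue held more than cortex.

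In 3 libraries the glial genes went against the label. The library labelled HT + Sham 6 had 550.0 CPM of *Gfap*, the intermediate filament of reactive astrocytes, and 10.5 CPM of *C3*, the central complement component, while the other 11 sham libraries had at most 242 and 1.73 CPM. Those labelled HT + Stroke 1 and HT + Stroke 6 had 249 and 231 CPM of *Gfap*, against 596 CPM or more in the other 10 stroke libraries. Their *C3*, at 2.9 and 3.45 CPM, was nevertheless above that of 11 of the 12 sham libraries. The same 3 libraries stood apart in regional markers: the library labelled HT + Sham 6 had the lowest striatal score of all 24 and the highest olfactory bulb score, and those labelled HT + Stroke 1 and HT + Stroke 6 had olfactory bulb scores of 2.92 and 3.65, among the 4 lowest. Whether the labels of these 3 libraries are right, for example whether samples were exchanged, was not tested, and the values for HT mice depend on it. Results are given with all 24 libraries and, where it matters, without these 3. They were picked for their values of stroke-responsive genes, so a clearer result without them is no independent support.

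Of the 17252 genes tested, 4362 (25.3%) were called, 2382 of them higher (13.8%) and 1980 lower (11.5%) after stroke. The split depended on scaling: without scaling beyond library size 2693 genes were higher and 1114 lower, and limma on log2(FPKM + 1) gave 2778 and 1141, against 2714 and 2046 by DESeq2. The increases were larger than the decreases. Among called genes, 437 were higher by 1 to 2 on the log2 scale, 98 by 2 to 3 and 50 by more than 3, and 4 were lower by more than 1, whereas 1523 of the 1980 lower genes changed by less than 0.3. Genes that were lower tended to be abundant, with a median average level of 5.69 on the log2 CPM scale against 3.04 for the higher genes and 4.05 for all genes tested. Protein-coding genes made up 96.0% of the higher and 94.4% of the lower genes, and 85.5% of those tested. Without the 3 libraries 5547 of 17518 genes were called (31.7%), 2964 higher and 2583 lower, and 4194 of them were among the 4362. The plot of change against level shows this asymmetry.

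**Figure D1:**
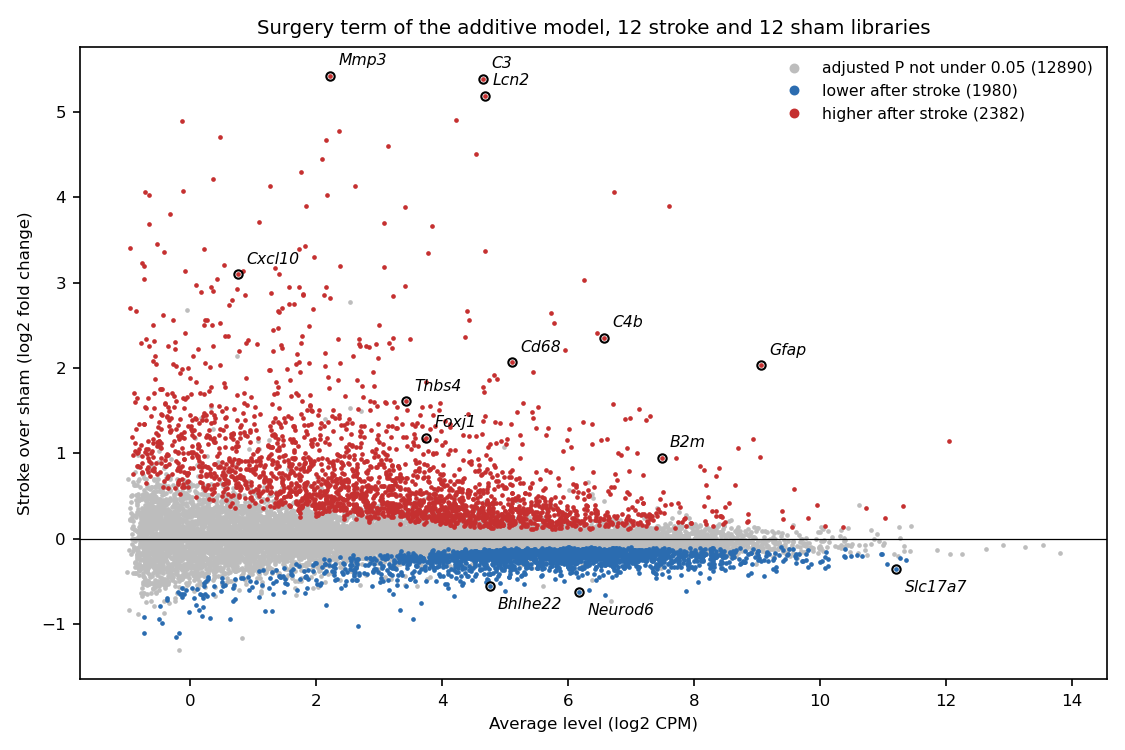
Log2 fold change of stroke over sham (vertical axis) against the average level in log2 CPM (horizontal axis) for 17252 genes, 1 point each, with 2382 called higher in red, 1980 called lower in blue and 13 genes ringed and named for orientation. Increases reach above 5 on the log2 scale among genes of low and middle level, while decreases are small and lie mostly among abundant genes.

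In 27 genes (0.157%) no stroke library overlapped with any sham library, 15 of them higher (0.0869%) and 12 lower (0.0696%). *Thbs4* (ENSMUSG00000021702, chromosome 13, 92751590 to 92794818 on GRCm38) encodes thrombospondin 4, an extracellular protein that astrocytes of the subventricular zone make after cortical injury. Its level was 3.22 to 7.73 CPM (median 5.09) in the sham libraries and 7.74 to 24.8 CPM (median 16.6) in the stroke libraries. All 12 stroke libraries lay above all 12 sham libraries, the highest sham value falling just below the lowest stroke value (log2 fold change 1.61, SE 0.18, adjusted *P* = 9.53e-06). *Foxj1* (ENSMUSG00000034227, chromosome 11, 116330704 to 116335399 on GRCm38), the transcription factor that switches on motile cilia, was 4.91 to 11.4 CPM (median 7.91) in the sham libraries and 12.9 to 27.8 CPM (median 17.2) in the stroke libraries. It was about 2.27-fold higher with no overlap (log2 fold change 1.18, SE 0.142, adjusted *P* = 1.09e-05). *Cfap126*, a protein of ciliary axonemes, was 0.693 to 1.7 CPM (median 1.07) in the sham libraries and 1.93 to 4.74 CPM (median 2.53) in the stroke libraries and was also without overlap (log2 fold change 1.28, SE 0.178, adjusted *P* = 2.21e-05). *Itgam* encodes CD11b, the complement receptor subunit of microglia and other myeloid cells. It was 8.0 to 11.8 CPM (median 10.2) in the sham libraries and 12 to 24.4 CPM (median 15.9) in the stroke libraries, so the separation was complete but narrow (log2 fold change 0.72, SE 0.10, adjusted *P* = 2.21e-05).

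The remaining 8 of the 12 largest increases without overlap had log2 fold changes of 0.45 to 0.83. They were *Ttc12*, needed for ciliary dynein arms, *Insc*, an adaptor of oriented cell division, *Tm4sf1*, a membrane protein of endothelial and tumour cells, *Scara3*, a scavenger receptor, *Col9a3*, a collagen chain, *Sncaip*, *Frmd4b*, and *Frmd8*, which helps release of the cytokine TNF. Each of the 24 genes chosen for separation was called in all 24 fits that left out 1 library. These genes were chosen from the same libraries, and leaving 1 out cannot create overlap, so this is no independent support. Outside the limit on level set for this choice, *Ccl12*, a chemokine that attracts monocytes, also showed no overlap, with 0.302 to 0.952 CPM (median 0.532) in the sham libraries and 0.968 to 3.92 CPM (median 1.95) in the stroke libraries (log2 fold change 1.82, SE 0.23, adjusted *P* = 1.22e-05).

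Among the decreases without overlap, *Bhlhe22* (ENSMUSG00000025128, chromosome 3, 18054174 to 18057517 on GRCm38), a transcription factor of upper-layer cortical neurons, was 27 to 44.4 CPM (median 31) in the sham libraries and 18 to 25.6 CPM (median 21.3) in the stroke libraries. Every stroke library was below every sham library, and the level was 1.47-fold higher in sham (log2 fold change -0.56, SE 0.0614, adjusted *P* = 7.50e-06). *C730002L08Rik* (ENSMUSG00000114469, chromosome 19, 20534527 to 20552330 on GRCm38), annotated as an antisense RNA gene, had the largest fold change of this kind, with 9.32 to 17.2 CPM (median 13.3) in the sham libraries and 5.09 to 9.2 CPM (median 7.04) in the stroke libraries (log2 fold change -0.83, SE 0.107, adjusted *P* = 1.31e-05). Whether counting used strand is not given in the sources used here, so reads of this gene and of a gene on the other strand cannot be told apart.

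Several of 9 further genes act at the synapse or in protein turnover. *Napb*, a factor that recycles the SNARE complex after vesicle fusion, fell by 0.34 on the log2 scale, and *Amph*, which bends membrane during vesicle uptake, fell by 0.31. *Cdh10*, an adhesion protein between neurons, fell by 0.36, and *Rap2a*, a small GTPase of dendrites, fell by 0.25. *Ube2n* and *Ube2ql1*, a pair of ubiquitin-conjugating enzymes, fell by 0.18 and 0.29. *Zfp697*, *Nrip1*, a corepressor of nuclear receptors, and *Baalc* were the others, with log2 fold changes of -0.42, -0.32 and -0.23. With olfactory bulb and striatal scores as covariates, the adjusted *P* of *Napb*, *Nrip1*, *Rap2a*, *Baalc* and *Ube2n* was 0.0563 to 0.114, and that of *Sncaip* among the increases was 0.0937.

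**Figure D2:**
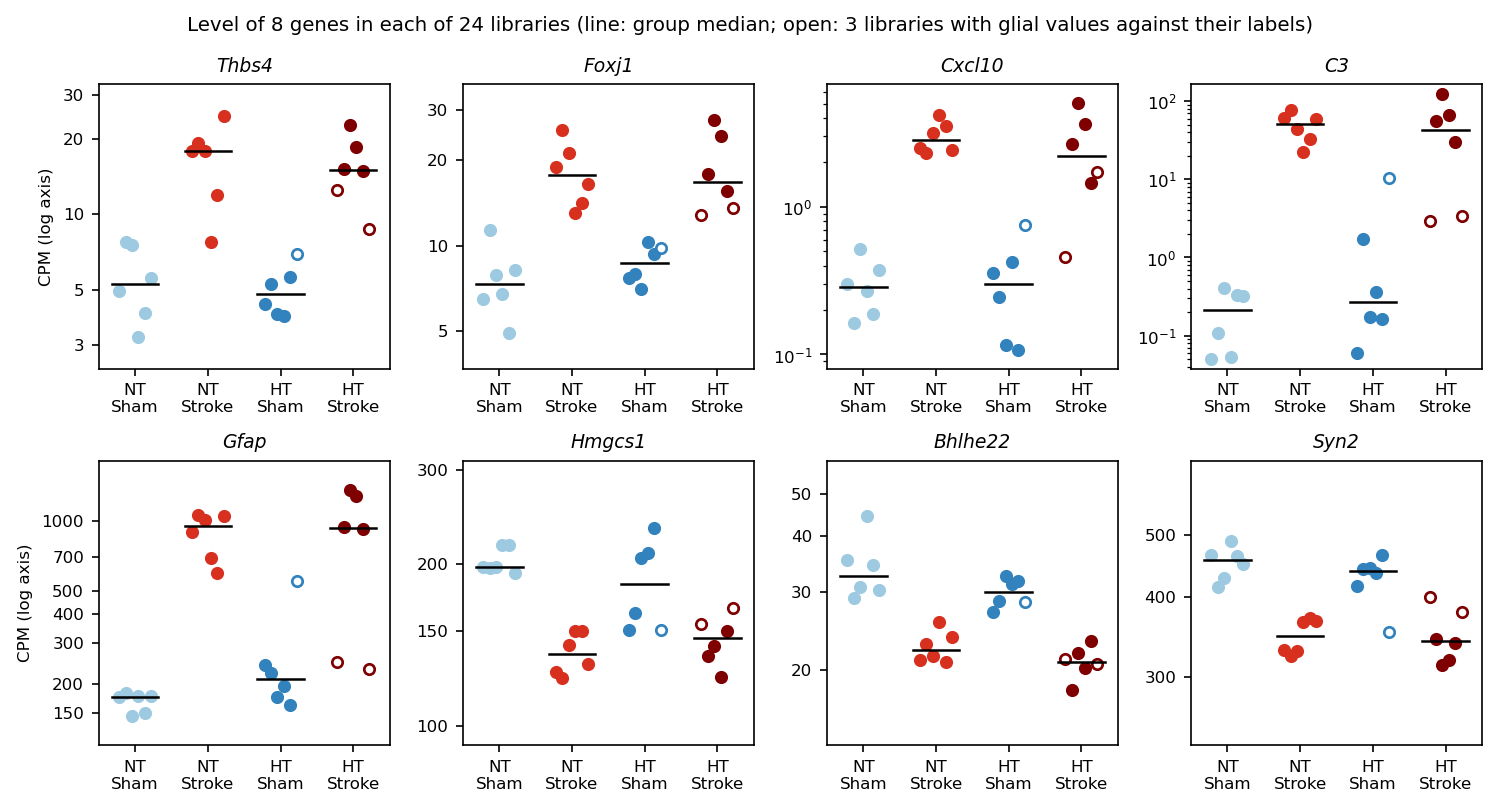
CPM on a log axis of 8 genes in 24 libraries, 1 point a library and 6 a group, with sham beside stroke for NT and then for HT mice, the group median as a line and the 3 libraries with glial values against their labels as open circles. *Thbs4*, *Foxj1* and *Bhlhe22* separate stroke from sham completely, whereas in *C3* and *Gfap* the open circles lie between or among the points of the other surgery.

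The changes were then counted in 40 lists of genes that mark cell types, pathways or neighbouring tissue, and read against the 13.8% of all genes that were higher and the 11.5% that were lower. The median log2 fold change of all genes tested was -0.01. In the list of disease-associated microglia, the lipid-handling state that microglia enter around dying cells, 20 of 20 members were higher (median log2 fold change 1.45). *Trem2*, the lipid receptor on which this state depends, was 17.6 to 40.9 CPM (median 21.6) in the sham libraries and 28.4 to 117 CPM (median 72.7) in the stroke libraries. In 10 of the 12 stroke libraries it exceeded every sham library (log2 fold change 1.54, SE 0.215, adjusted *P* = 3.55e-05), and *Tyrobp*, the adaptor through which it signals, moved alike (log2 fold change 1.59, SE 0.207, adjusted *P* = 2.47e-05). *Cd9*, a tetraspanin of lysosome-rich microglia, was 30.5 to 49.5 CPM (median 38.4) in the sham libraries and 39.6 to 115 CPM (median 85.9) in the stroke libraries (log2 fold change 1.03, SE 0.132, adjusted *P* = 2.00e-05). The steepest members were *Clec7a*, a receptor for fungal glucans, *Lgals3*, a sugar-binding protein of phagocytes, and *Cst7*, an inhibitor of cathepsins, with log2 fold changes of 4.60, 4.51 and 4.45. These 3 values depended on the library labelled HT + Sham 6, and were 5.58, 5.92 and 5.91 without it.

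Genes of homeostatic microglia rose less, with 9 of 12 members higher (median 0.42). *Csf1r*, the receptor that keeps microglia alive, was 70.7 to 106 CPM (median 84.2) in the sham libraries and 83.3 to 188 CPM (median 131) in the stroke libraries (log2 fold change 0.61, SE 0.0981, adjusted *P* = 6.77e-05). *Olfml3* (log2 fold change 0.78) and *Fcrls* (0.80), both expressed by microglia, rose as well. *P2ry12*, the purinergic receptor that microglia lose on activation, was not called (-0.0042, adjusted *P* = 0.977) and changed least of the list. With regional scores as covariates, 4 of the 12 were called, against 14 of 20 disease-associated genes.

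The machinery of engulfment and digestion rose with them. Of lysosomal genes, 16 of 17 were higher (median 0.69). *Cd68*, a lysosomal membrane protein of phagocytes, was 7.57 to 27.2 CPM (median 12.5) in the sham libraries and 18.8 to 93.7 CPM (median 60.9) in the stroke libraries (log2 fold change 2.07, SE 0.266, adjusted *P* = 2.38e-05). *Gusb* and *Man2b1*, enzymes that cut sugars off glycans, had log2 fold changes of 0.79 and 0.57. Fc receptors and their signaling partners, which let phagocytes respond to antibody-coated targets, rose in 10 of 10 cases (median 1.36). *Fcgr1*, the high-affinity IgG receptor, was 1.76 to 5.21 CPM (median 3.24) in the sham libraries and 4.56 to 15.3 CPM (median 9.31) in the stroke libraries (log2 fold change 1.51, SE 0.19, adjusted *P* = 1.30e-05). Of genes for lipid uptake, storage and efflux, 12 of 15 were higher and 1 lower (median 0.71). *Abca1*, the pump that loads cholesterol onto apolipoproteins, was 14.2 to 36.6 CPM (median 17.8) in the sham libraries and 17.9 to 86.5 CPM (median 50.9) in the stroke libraries (log2 fold change 1.34, SE 0.223, adjusted *P* = 0.000142), and *Apoc1*, an apolipoprotein, had a log2 fold change of 2.82. *Nceh1*, a cholesteryl ester hydrolase, was the member that fell (log2 fold change -0.13, SE 0.0429, adjusted *P* = 0.0242). Regional covariates left 3 of these lipid genes called higher and 9 of the lysosomal genes.

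Complement tags debris and synapses for removal, and 15 of 17 tested members of the pathway were higher (median 1.43). *C3* (ENSMUSG00000024164, chromosome 17, 57203970 to 57228136 on GRCm38) was 0.0504 to 10.5 CPM (median 0.247) in the sham libraries and 2.9 to 123 CPM (median 50.1) in the stroke libraries. The 10 stroke libraries other than HT + Stroke 1 and 6 lay above all sham libraries (log2 fold change 5.39, SE 0.738, adjusted *P* = 3.47e-05), and the log2 fold change was 7.18 without the library labelled HT + Sham 6. *C4b* was 18.3 to 85.2 CPM (median 25.8) in the sham libraries and 45.8 to 254 CPM (median 174) in the stroke libraries (log2 fold change 2.35, SE 0.291, adjusted *P* = 2.00e-05), and some of its reads may belong to its near-identical copy *C4a*. The 3 chains of C1q, the recognition protein of the classical pathway, moved together, with log2 fold changes of 1.38 for *C1qb*, 1.41 for *C1qc* and 1.43 for *C1qa*. *Itgb2*, the partner of *Itgam* in complement receptor 3, rose by 1.84. The membrane inhibitors *Cd55* and *Cd59a* had log2 fold changes of 0.03 and 0.16 and were not called.

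All 13 genes of MHC antigen presentation were higher (median 1.35). *B2m*, the invariant chain of class I molecules, was 102 to 182 CPM (median 114) in the sham libraries and 123 to 332 CPM (median 248) in the stroke libraries (log2 fold change 0.95, SE 0.137, adjusted *P* = 3.61e-05). *H2-D1*, a class I heavy chain, rose by 1.40, and *Psmb9*, a subunit of the immunoproteasome, rose by 1.42. *H2-Aa*, a class II chain, and *Cd74*, the chaperone of class II, rose further, by 2.66 and 2.64. This did not hold for the whole class II pathway. *H2-DMa*, which belongs to it, was the weakest of the 13 genes with all libraries (0.24, adjusted *P* = 0.0364). Its call was lost in 10 of 24 fits that left out 1 library. Without the 3 libraries 12 of these 13 genes were called.

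Genes that interferons induce were higher in 14 of 16 cases (median 0.88). *Oasl2*, an antiviral protein related to oligoadenylate synthetases, was 2.41 to 6.11 CPM (median 3.41) in the sham libraries and 4.56 to 12.8 CPM (median 9.01) in the stroke libraries (log2 fold change 1.25, SE 0.169, adjusted *P* = 2.21e-05). *Bst2*, which tethers budding virions to the cell, was 5.25 to 13.4 CPM (median 6.11) in the sham libraries and 9.51 to 32.7 CPM (median 16) in the stroke libraries (log2 fold change 1.32, SE 0.181, adjusted *P* = 2.63e-05). *Ifit2* and *Stat2* were the 2 members not called, with log2 fold changes of 0.07 and 0.04. With regional covariates 10 members were called and the median was 0.91.

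Of chemokines and their receptors, 16 of 17 were higher (median 1.82). *Cxcl10*, which attracts activated T cells, had the smallest *P* of all genes tested. It was 0.107 to 0.752 CPM (median 0.285) in the sham libraries and 0.456 to 5.05 CPM (median 2.59) in the stroke libraries, and 11 of the 12 stroke libraries lay above all sham libraries (log2 fold change 3.10, SE 0.312, adjusted *P* = 2.82e-06). *Ccl2*, which attracts monocytes, was 0 to 0.451 CPM (median 0.128) in the sham libraries and 0.114 to 2.3 CPM (median 1.17) in the stroke libraries (log2 fold change 2.62, SE 0.385, adjusted *P* = 3.01e-05). The neuronal chemokine *Cx3cl1* had a log2 fold change of -0.10 and was not called. Among cytokines and pattern receptors, 12 of 14 were higher, led by *Tlr2*, a receptor for bacterial lipoproteins (log2 fold change 2.16, SE 0.288, adjusted *P* = 2.21e-05), *Tgfb1* (1.04) and *Cd14* (1.29). *Nos2*, the inducible nitric oxide synthase, was not called (-0.01, adjusted *P* = 0.98).

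The promoters of 4 of these genes are shown because their genes rose together and they hold a motif of a known response. They are the 250 bases before the annotated start, read 5′ to 3′ on the gene's strand from RefSeq on GRCm38.p6. In each sequence capitals mark only the motif named for it: the core of the interferon-stimulated response element (ISRE), which is GAAA, any 2 bases and GAAA again on either strand, in *Cxcl10* (chr5:92348890-92349139, minus strand), *Bst2* (chr8:71537473-71537722, minus strand) and *B2m* (chr2:122147437-122147686, plus strand), and TGANTCA, the site of AP-1, in *Mmp13* (chr9:7272264-7272513, plus strand), which encodes a collagenase.
Cxcl10: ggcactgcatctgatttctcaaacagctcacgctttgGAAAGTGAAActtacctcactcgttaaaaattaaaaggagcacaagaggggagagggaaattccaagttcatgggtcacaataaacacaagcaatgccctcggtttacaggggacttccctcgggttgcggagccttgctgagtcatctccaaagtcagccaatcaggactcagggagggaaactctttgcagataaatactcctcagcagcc
Bst2: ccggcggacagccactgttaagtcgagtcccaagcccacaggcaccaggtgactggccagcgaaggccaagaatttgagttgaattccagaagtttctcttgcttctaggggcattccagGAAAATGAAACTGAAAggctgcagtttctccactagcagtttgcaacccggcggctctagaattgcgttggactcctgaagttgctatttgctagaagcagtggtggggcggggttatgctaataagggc
B2m: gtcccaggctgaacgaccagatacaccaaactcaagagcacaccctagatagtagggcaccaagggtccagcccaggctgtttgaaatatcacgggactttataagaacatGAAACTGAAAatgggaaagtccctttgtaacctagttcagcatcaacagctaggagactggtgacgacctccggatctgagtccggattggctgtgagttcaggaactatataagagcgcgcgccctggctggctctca
Mmp13: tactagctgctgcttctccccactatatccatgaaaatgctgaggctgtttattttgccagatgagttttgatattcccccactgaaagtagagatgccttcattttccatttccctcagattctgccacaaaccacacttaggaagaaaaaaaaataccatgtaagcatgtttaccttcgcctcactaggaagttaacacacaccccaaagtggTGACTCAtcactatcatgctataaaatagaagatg
The ISRE core begins 213 bases before the start in *Cxcl10*, 130 in *Bst2*, where 2 matches overlap, and 139 in *B2m*, and the AP-1 site begins 35 bases before the start of *Mmp13*. The *Mmp13* window also holds an ISRE core, on the other strand, and the *Cxcl10* window an AP-1 site, neither of them in capitals.

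Promoters from 250 bases before to 50 bases after the start were matched by symbol for 12293 of 17240 tested genes, with the entry listed earliest taken for genes with several starts, and searched on both strands for 11 motifs. The ISRE core occurred in 2.96% of the tested genes' promoters, in 5.54% of higher and 2.69% of lower genes, and in 7 of 11 promoters of the interferon-stimulated list. GAGGAAGT, bound by the myeloid factor PU.1, occurred in 2.79%, 4.83% and 2.42% in the same order, and TGANTCA in 5.02%, 8.06% and 4.24%. TGACGTCA, the cyclic AMP response element, ran the other way, at 3.09%, 1.43% and 4.04%, as did the palindrome of NRF1, a factor of mitochondrial genes, at 1.83%, 0.658% and 2.29%. CAGATG, an E-box, was held by 12.2%, 16.3% and 11.1%. Each of the other 5 motifs was rarer than 2% in all 3 sets: TTCCNGGAA of STAT factors and the longer motifs of NF-kB, of lysosomal genes (CLEAR), of SREBP (SRE) and of RFX factors (X-box). In the whole table of 27025 promoters, the shares were 3.49% for the ISRE core, 3.28% for GAGGAAGT and 7.93% for TGANTCA. The promoters also differed in composition, with a median of 4.67 CpG per 100 bases in higher, 7.67 in lower and 6.67 in all tested genes. These counts were not tested, and a match is not evidence of binding.

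Reactive astrocyte genes were higher in 20 of 22 cases (median 1.46). *Gfap* (ENSMUSG00000020932, chromosome 11, 102887336 to 102900912 on GRCm38) was 146 to 550.0 CPM (median 178) in the sham libraries and 231 to 1348 CPM (median 928) in the stroke libraries. The level was 4.09-fold higher after stroke, and the overlap came from the 3 libraries described above (log2 fold change 2.03, SE 0.281, adjusted *P* = 3.48e-05, or 2.43 without them). *Cd109*, a membrane protein that binds TGF-beta, was 0.0617 to 1.2 CPM (median 0.563) in the sham libraries and 1.08 to 3.73 CPM (median 2.72) in the stroke libraries (log2 fold change 2.20, SE 0.252, adjusted *P* = 9.08e-06). *Lcn2*, an iron-siderophore carrier that injured brain secretes, had a log2 fold change of 5.19, which was 6.14 without the library labelled HT + Sham 6. *Tgm1*, a transglutaminase, and *Steap4*, a metal reductase, rose by 4.29 and 4.03, and the fold of *Tgm1* was 4.94 without that library. Genes of astrocyte transport and coupling changed less, with 5 of 14 higher (median 0.14). *Aqp4*, the water channel of astrocyte endfeet, was 44.8 to 87.6 CPM (median 54.5) in the sham libraries and 46.4 to 106 CPM (median 90.4) in the stroke libraries (log2 fold change 0.49, SE 0.132, adjusted *P* = 0.00785), and *Mlc1*, which partners with it at endfeet, rose by 0.42. *Slc1a2*, the main glutamate uptake carrier, was not called (0.01, adjusted *P* = 0.936).

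The wound matrix rose too. Of fibroblast and scar genes, 16 of 20 were higher (median 0.86). *Dcn*, the collagen-binding proteoglycan decorin, was 7.04 to 28.6 CPM (median 10.8) in the sham libraries and 14.7 to 77.3 CPM (median 45.5) in the stroke libraries (log2 fold change 1.87, SE 0.277, adjusted *P* = 5.22e-05). *Lum*, its relative lumican, rose by 2.35, *Sparc*, which binds collagen in remodelling tissue, by 0.81, and *Col1a1* and *Col3a1*, the fibrillar collagen chains, by 3.03 and 3.37. Of matrix proteases and their inhibitors 11 of 14 were higher (median 0.95). *Mmp3*, or stromelysin, had the largest log2 fold change among named genes. It was 0 to 1.65 CPM (median 0.0541) in the sham libraries and 0.0638 to 21.4 CPM (median 10.8) in the stroke libraries (log2 fold change 5.42, SE 0.855, adjusted *P* = 8.89e-05), and 7.06 without the library labelled HT + Sham 6. *Mmp13* was 0 to 0.289 CPM (median 0.0558) in the sham libraries and 0 to 6.22 CPM (median 2.16) in the stroke libraries (log2 fold change 4.71, SE 0.71, adjusted *P* = 4.97e-05). *Mmp14*, which activates other matrix proteases at the cell surface, rose by 1.38. Regional covariates left 5 of the scar genes and 1 of the protease genes called.

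Vessel genes mostly did not pass the test. Of brain endothelial genes 2 of 14 were higher (median 0.10), a share near the 13.8% of all genes tested. They were *Cdh5*, the cadherin of endothelial junctions (log2 fold change 0.47, SE 0.0929, adjusted *P* = 0.000428), and *Vwf* (log2 fold change 0.26, SE 0.0934, adjusted *P* = 0.0428). The call of *Vwf* was lost in 14 of 24 fits that left out 1 library. *Cldn5*, the tight junction protein of the blood-brain barrier, was 47 to 80.6 CPM (median 60.3) in the sham libraries and 48.2 to 83 CPM (median 72.8) in the stroke libraries (log2 fold change 0.20, SE 0.0912, adjusted *P* = 0.114). Of pericyte and smooth muscle genes 3 of 9 were higher. *Pdgfrb*, the growth factor receptor of pericytes and of scar-forming cells, was 16.6 to 23.2 CPM (median 20.1) in the sham libraries and 19.3 to 36.7 CPM (median 29.8) in the stroke libraries (log2 fold change 0.53, SE 0.079, adjusted *P* = 3.33e-05), *Anpep* rose by 1.51 and *Notch3* by 0.24.

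Several lists of border macrophages and blood-borne cells held genes that rose from low levels. With regional covariates the calls of higher genes fell from 8 to 4 for macrophages, from 5 to 1 for T cells, from 3 to 0 for B cells and from 2 to 0 for neutrophils. The median log2 fold change of macrophage genes was 0.82 in both fits. It went from 0.99 to 0.52 for T cells, from 0.85 to 0.37 for B cells and from 2.46 to 1.09 for neutrophils. Of border and infiltrating macrophage genes 8 of 10 were higher (median 0.82). *Ms4a7*, a marker of macrophages that are not microglia, was 0.0935 to 2.36 CPM (median 0.483) in the sham libraries and 0.574 to 13.1 CPM (median 7.3) in the stroke libraries (log2 fold change 3.30, SE 0.459, adjusted *P* = 3.33e-05). *Ccr2*, the monocyte receptor for *Ccl2*, was 0.37 to 0.852 CPM (median 0.519) in the sham libraries and 0.114 to 2.5 CPM (median 1.58) in the stroke libraries, and here 1 stroke library lay below all sham libraries (log2 fold change 1.47, SE 0.267, adjusted *P* = 0.000183). *Cd163* and *Lyve1*, of perivascular macrophages, had log2 fold changes of -0.01 and -0.57 and were not called. Of T and cytotoxic lymphocyte genes 5 of 7 tested were higher, among them *Ccl5* (log2 fold change 2.74, SE 0.443, adjusted *P* = 7.65e-05) and *Cd3g*, a chain of the T-cell receptor complex (log2 fold change 1.12, SE 0.286, adjusted *P* = 0.00455). *Trbc2* fell (log2 fold change -0.44, SE 0.147, adjusted *P* = 0.0302), a call lost in 8 of 24 fits that left out 1 library, and its reads may be shared with *Trbc1*. *Cd4* rose by 1.54, which became 0.30 (adjusted *P* = 0.216) under the regional covariates. Of B-cell genes 3 of 5 were higher, with *Igkc*, the kappa light chain, at 0.107 to 7.92 CPM (median 0.853) in the sham libraries and 0.285 to 54.2 CPM (median 6.68) in the stroke libraries (log2 fold change 3.18, SE 0.765, adjusted *P* = 0.00377), *Jchain* (1.78) and *Cd79a* (0.85), whose call was lost in 11 of 24 such fits. Of 8 neutrophil genes 2 had enough counts, and both rose, *S100a8* by 2.45 and *S100a9* by 2.47. Red blood cell genes gave 0 calls in 5 tested by edgeR and by DESeq2, and 0 at an unadjusted *P* under 0.05, with *Hba-a2* at 0.21 (adjusted *P* = 0.619).

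Myelin genes were higher in 8 of 12 cases (median 0.37). *Cldn11*, the tight junction protein of myelin, was 97.2 to 147 CPM (median 114) in the sham libraries and 126 to 194 CPM (median 165) in the stroke libraries (log2 fold change 0.48, SE 0.0708, adjusted *P* = 3.05e-05). *Cnp* rose by 0.42, *Aspa*, the aspartoacylase of oligodendrocytes, by 0.50, and *Mbp* by 0.39. Of the oligodendrocyte precursor list 5 of 12 were higher, led by *Bcas1* (log2 fold change 0.41, SE 0.0681, adjusted *P* = 7.25e-05) and *Enpp6* (0.61), which mark cells that are starting to myelinate, and *Olig2* (0.23). *Pdgfra*, the defining receptor of precursors, was not called (0.02, adjusted *P* = 0.825), and *Tnr*, a matrix protein, fell by 0.28. With regional covariates the genes called higher were 5 of the myelin list and 1 of the precursor list. The adjusted *P* in that fit was 0.127 for *Enpp6*, 0.0509 for *Olig2* and 0.356 for *Tnr*. Proliferation genes were higher in 2 of 13, a share near the 13.8% of all genes tested. They were *Mki67* (0.483 to 1.54 CPM (median 1.05) in the sham libraries and 1.02 to 3.43 CPM (median 1.82) in the stroke libraries, log2 fold change 0.93, SE 0.208, adjusted *P* = 0.00142) and *Mcm3*, a subunit of the replication helicase (log2 fold change 0.75, SE 0.115, adjusted *P* = 3.62e-05). With regional covariates 1 proliferation gene was called, and *Mki67* was 0.40 (adjusted *P* = 0.425).

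**Figure D3:**
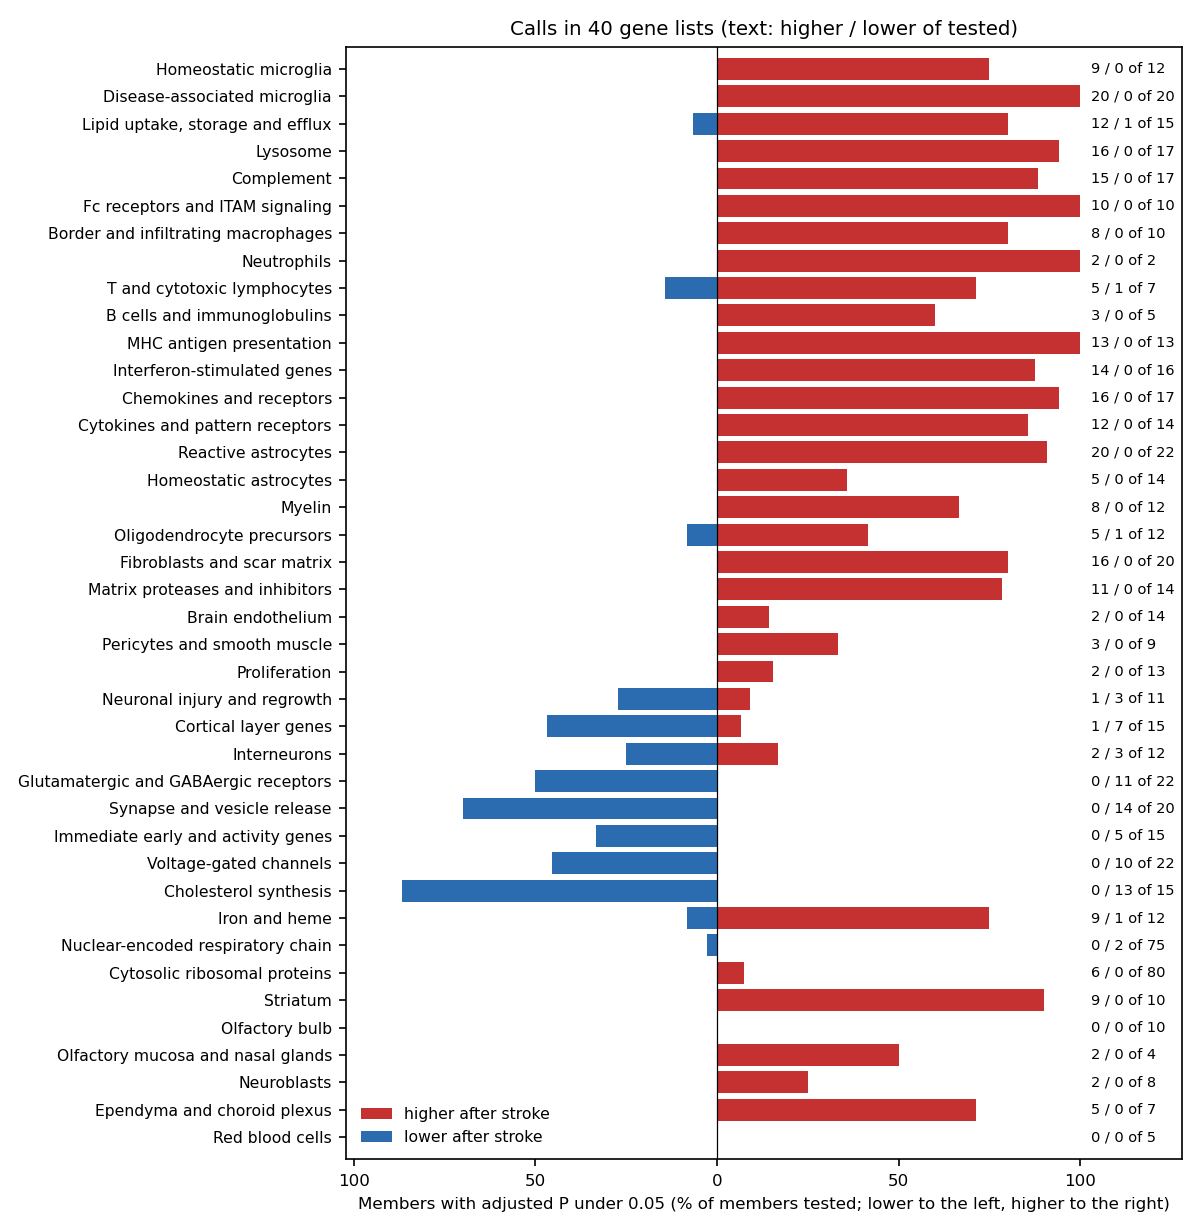
Share of tested members with an adjusted *P* under 0.05 in 40 gene lists, as bars to the right for members higher and to the left for members lower after stroke, with the counts printed beside each bar. Immune, phagocyte, reactive astrocyte and scar lists point right, with 20 of 20 disease-associated microglia genes, while synapse, receptor, channel and cholesterol synthesis lists point left, with 13 of 15 cholesterol synthesis genes.

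Neuronal genes were lower by small amounts. Of genes for synapse and vesicle release 14 of 20 were lower and 0 higher (median -0.22), against the 11.5% lower among all genes. *Syn2*, a protein that clusters synaptic vesicles, was 353 to 488 CPM (median 443) in the sham libraries and 314 to 399.9 CPM (median 341) in the stroke libraries (log2 fold change -0.33, SE 0.0499, adjusted *P* = 3.53e-05). *Snap25* and *Syt1*, a SNARE protein and the calcium sensor of release, fell by 0.30 and 0.27. *Slc17a7* was 2178 to 3104 CPM (median 2729) in the sham libraries and 1568 to 2643 CPM (median 2063) in the stroke libraries (log2 fold change -0.35, SE 0.0809, adjusted *P* = 0.00174). *Rbfox3*, which encodes the neuronal marker NeuN, was 447 to 659 CPM (median 563) in the sham libraries and 407 to 650.4 CPM (median 508) in the stroke libraries and was not called (log2 fold change -0.12, SE 0.075, adjusted *P* = 0.286). With regional covariates 1 of the 20 synapse genes was called, although the median remained negative (-0.17).

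Of glutamate and GABA receptor subunits 11 of 22 were lower (median -0.21). *Gria3*, an AMPA receptor subunit, was 154 to 245 CPM (median 181) in the sham libraries and 121 to 161 CPM (median 140.1) in the stroke libraries (log2 fold change -0.38, SE 0.061, adjusted *P* = 4.98e-05). *Grin2a*, an NMDA receptor subunit, fell by 0.32. Voltage-gated channels gave 10 lower of 22 (median -0.16), with *Kcnc2* (-0.32), a potassium channel of fast-spiking neurons, and *Kcna2* (-0.24). With regional covariates 1 receptor and 0 channel genes were called, by the same test. Immediate early and activity genes gave 5 lower of 15 (median -0.34). *Bdnf*, the activity-dependent neurotrophin, was 14.1 to 26.5 CPM (median 19.5) in the sham libraries and 9.84 to 18.6 CPM (median 13) in the stroke libraries (log2 fold change -0.54, SE 0.0996, adjusted *P* = 0.000245). *Nr4a1* and *Nr4a3*, nuclear receptors that neuronal firing induces, fell by 0.60 and 0.55, whereas *Arc* and *Fos*, with log2 fold changes of -0.73 and -0.55, were not called (adjusted *P* = 0.0509 and 0.0751).

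Cortical identity genes divided. Of 15 layer genes 7 were lower and 1 higher (median -0.18). *Neurod6*, a transcription factor of excitatory neurons, was 50.4 to 102 CPM (median 92.4) in the sham libraries and 40.4 to 85.6 CPM (median 56.1) in the stroke libraries (log2 fold change -0.63, SE 0.111, adjusted *P* = 0.000181). *Tbr1* and *Neurod2*, factors of deep-layer and of all cortical projection neurons, fell by 0.39 and 0.37. The gene that rose was *Foxp2* (log2 fold change 0.55, SE 0.152, adjusted *P* = 0.00862), which deep cortical layers and striatum both express, and it was 0.14 (adjusted *P* = 0.335) with regional covariates. Among interneuron genes 3 of 12 fell and 2 rose, against 11.5% lower and 13.8% higher among all genes, so the share that rose was near that of all genes. *Vip*, the peptide of a disinhibitory interneuron class, was 33.8 to 47.6 CPM (median 38.3) in the sham libraries and 24.9 to 34.7 CPM (median 30.9) in the stroke libraries (log2 fold change -0.33, SE 0.0585, adjusted *P* = 0.000144), *Cort* fell by 0.61 and *Cck* by 0.44. *Slc32a1*, the vesicular GABA transporter, rose by 0.35, while *Gad1*, which makes GABA, was not called (0.07, adjusted *P* = 0.789). With regional covariates 0 interneuron genes were called higher and 1 lower. *Slc32a1* was then 0.18 (adjusted *P* = 0.217), and the adjusted *P* of *Cort* and of *Cck* was 0.123. Of neuronal injury genes *Atf3*, a stress-induced transcription factor, rose (0.483 to 3.01 CPM (median 0.889) in the sham libraries and 0.684 to 11.5 CPM (median 5.98) in the stroke libraries, log2 fold change 2.37, SE 0.369, adjusted *P* = 6.20e-05), and *Stmn2* (-0.36) and *Gap43* (-0.19), growth-cone proteins, and *Klf6* (-0.15) fell, the calls of *Gap43* and *Klf6* being lost in 16 and 3 of 24 fits that left out 1 library.

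Cholesterol synthesis was the most uniform of the lists that fell, with 13 of 15 genes lower (median -0.32). *Hmgcs1*, which makes HMG-CoA early in the pathway, was 151 to 233 CPM (median 197) in the sham libraries and 123 to 166 CPM (median 141) in the stroke libraries. In 10 of 12 stroke libraries it lay below all sham libraries (log2 fold change -0.46, SE 0.0695, adjusted *P* = 3.48e-05), and *Sqle*, which begins the sterol branch, fell by 0.44. *Srebf2*, the transcription factor of the pathway, fell by 0.17. With regional covariates 5 members were called, *Hmgcs1* among them (-0.40, adjusted *P* = 0.0156). Beside the 1.34 of *Abca1*, these synthesis and efflux genes changed in opposite directions in these libraries.

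Iron and heme genes were higher in 9 of 12 cases and lower in 1 (median 0.76). *Hmox1*, which breaks down heme, was 4.95 to 13.6 CPM (median 6.13) in the sham libraries and 7.66 to 27.2 CPM (median 17.6) in the stroke libraries (log2 fold change 1.36, SE 0.21, adjusted *P* = 6.01e-05). *Slc11a1*, which pumps metal out of the phagosome, rose by 2.23, and *Steap3*, a ferric reductase, by 1.21. *Tfrc*, the transferrin receptor, fell (log2 fold change -0.31, SE 0.0918, adjusted *P* = 0.0124). Nuclear genes of the respiratory chain gave 2 lower of 75 (*Uqcrc2*, -0.16, and *Sdha*, -0.11), and cytosolic ribosomal proteins 6 higher of 80, with *Rplp0* at 0.26, both shares below those of all genes.

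Some genes of neighbouring regions moved with surgery as well. Of striatal markers 9 of 10 were higher (median 0.98). The striatal score, the mean log2(CPM + 1) of the list, was 4.0 to 6.69 (median 5.67) in sham and 4.78 to 7.49 (median 6.84) in stroke libraries. *Penk*, the enkephalin precursor of striatal output neurons, was 109 to 419.9 CPM (median 238) in the sham libraries and 173 to 672 CPM (median 448) in the stroke libraries (log2 fold change 0.83, SE 0.222, adjusted *P* = 0.00803), and *Drd2*, a dopamine receptor, rose by 1.48. The olfactory bulb list gave 0 calls in 10 by edgeR and by DESeq2, 0 at an unadjusted *P* under 0.05, 1 call without the 3 libraries and 7 with the striatal score as covariate, with *Omp*, of olfactory sensory neurons, at 1.08 (adjusted *P* = 0.172), and its score ranged over 3.52 to 6.16 in sham and 2.92 to 5.9 in stroke libraries. Ependyma and choroid plexus genes were higher in 5 of 7 cases, with *Ccdc153* at 2.23 and 0.72 (adjusted *P* = 0.27) under regional covariates, and *Foxj1* at 0.85 (adjusted *P* = 0.014). *Ttr*, the defining gene of choroid plexus, was not called (-0.53). Of the nasal list 2 of 4 tested were higher, *Ano2* (1.41) and *Bpifa1* (2.86), and *Bpifa1* was 1.97 with an adjusted *P* of 0.0740 without HT + Stroke 3. Neuroblast genes gave 2 higher of 8, *Cd24a* (0.51) and *Igfbpl1* (0.53).

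Because the striatal score differed between stroke and sham and the olfactory bulb score varied widely among libraries, the additive model was fitted again with the olfactory bulb and striatal scores as covariates. It called 936 genes (5.43%), 731 higher and 205 lower, and 906 of them were among the 4362. The median standard error rose from 0.0824 to 0.108. *Cxcl10* (2.99, adjusted *P* = 0.000836), *C4b* (2.25, 0.00641), *Gfap* (2.01, 0.00934), *Thbs4* (1.14, 0.013) and *Bhlhe22* (-0.37, 0.00827) were among the genes called. With the striatal score alone 4137 genes were called, 2416 higher and 1721 lower.

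**Figure D4:**
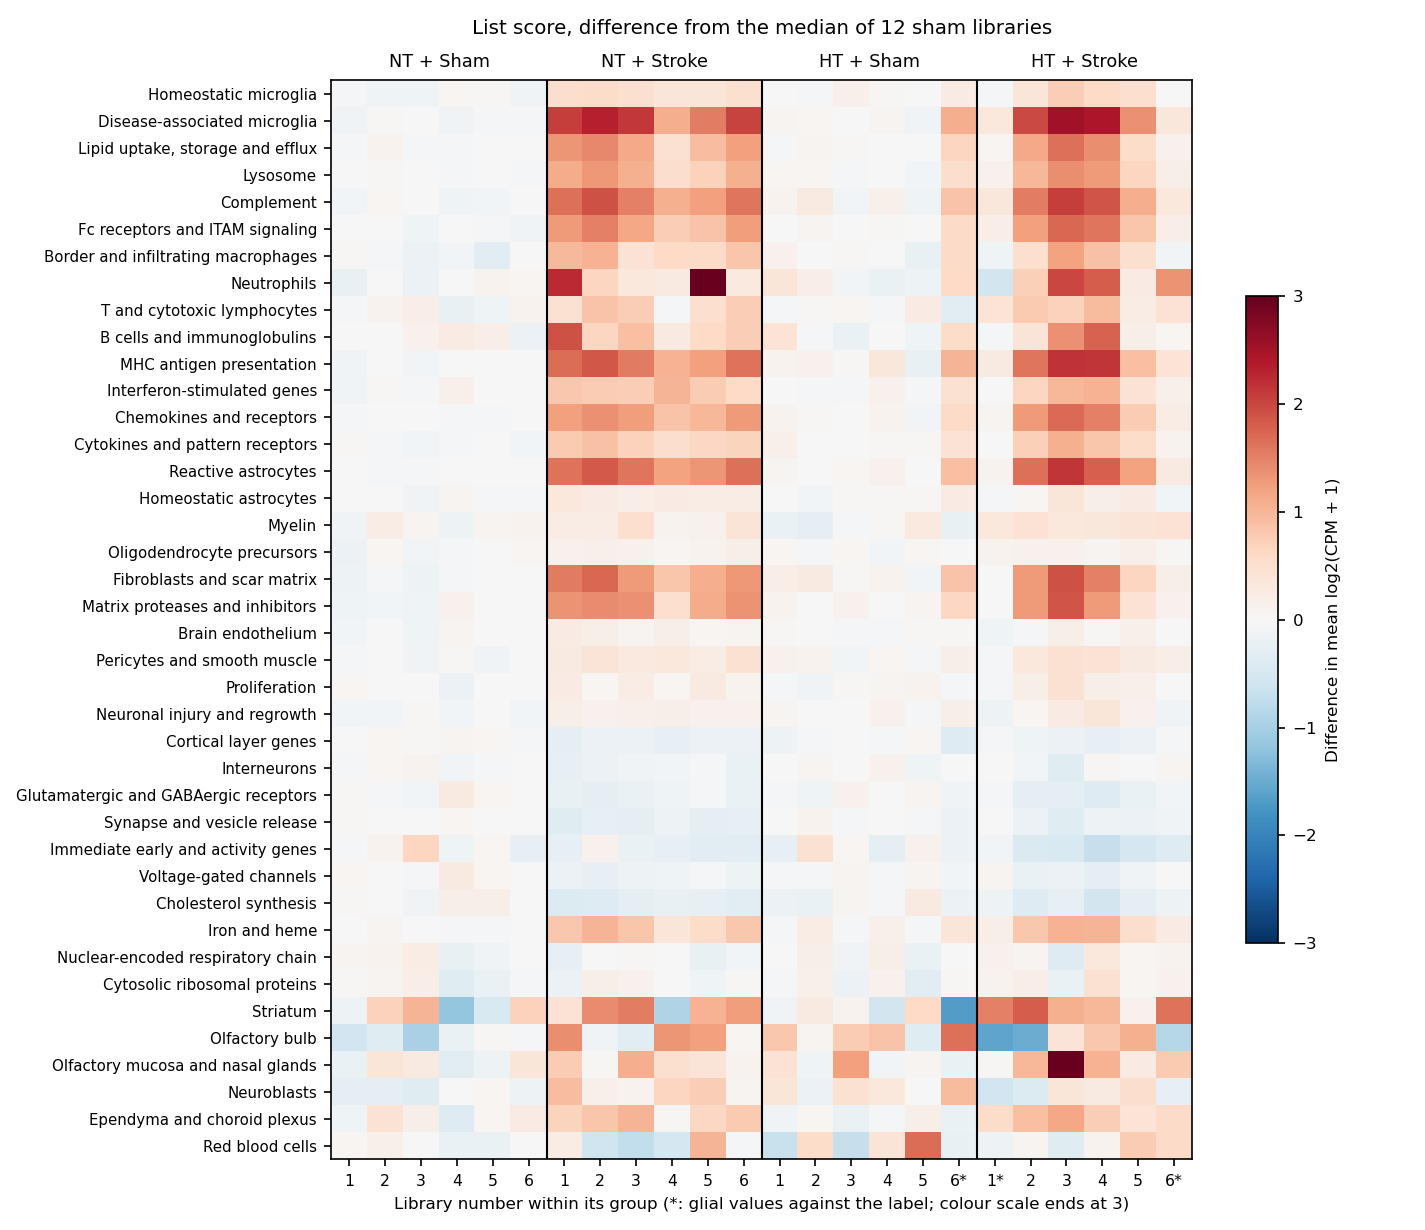
Score of 40 gene lists (rows) in 24 libraries (columns, by group), as the difference in mean log2(CPM + 1) from the median of the 12 sham libraries, in red where higher and blue where lower, with 3 libraries marked by an asterisk. Most immune rows and the reactive astrocyte row are red in NT + Stroke and in 4 of 6 HT + Stroke libraries. These rows are mostly pale in the starred HT + Stroke libraries and red in the starred HT + Sham library. The T cell, neutrophil, homeostatic astrocyte and myelin rows depart from this in some libraries, and the striatum and olfactory bulb rows vary within every group.

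The pooled term is an average over both infusions, so NT and HT mice were also fitted separately, and these fits share no library. In NT mice 4365 of 16835 genes were called (25.9%), 2426 higher (14.4%) and 1939 lower (11.5%). In HT mice 108 of 16741 were called (0.645%), 91 higher (0.544%) and 17 lower (0.102%), and 2842 had an unadjusted *P* under 0.05. The median standard error was 0.0989 in NT and 0.119 in HT. Of 2369 genes that were higher in NT and tested in both, 87.0% had a positive log2 fold change in HT and 55 were called there, and of 1939 lower genes 85.7% had a negative one and 12 were called. None of these genes was called in the opposite direction. Across 16550 genes the log2 fold changes had a Pearson's r of 0.692 and a Spearman's rho of 0.463, as a description, since genes are not independent replicates.

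*Thbs4* had log2 fold changes of 1.60 in NT and 1.63 in HT, with adjusted *P* of 0.00139 and 0.00627. *Cxcl10* (3.32 and 2.88), *Foxj1* (1.26 and 1.11) and *Bhlhe22* (-0.59 and -0.51) were also called in both. For *Gfap* the values were 2.39 in NT and 1.69 in HT (adjusted *P* = 0.135), and for *C3* 7.84 and 4.38 (adjusted *P* = 0.118). The count in HT depended on single libraries. It was 14, 50, 9, 18, 126 and 150 without HT + Sham 1, 2, 3, 4, 5 and 6. Without HT + Stroke 1, 2, 3, 4, 5 and 6 it was 533, 9, 73, 25, 207 and 295. Without the 3 libraries whose glial values went against their labels it was 1437 (8.47%), 1155 higher and 282 lower, of which 1143 and 282 were tested in both and 1034 and 246 were also called in NT.

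The difference between the stroke effects in NT and HT was tested as an interaction of infusion and surgery. The test called 0 of 17252 genes (0.0%), with a smallest adjusted *P* of 0.263 and 1812 genes at an unadjusted *P* under 0.05, while DESeq2 called 22. Without the 3 libraries 0 genes were called and 656 had an unadjusted *P* under 0.05. The genes with the smallest *P* for the interaction were *Plxdc1*, *Syt6*, *Vamp1*, *Slco5a1* and *Ctbp2*, and the adjusted *P* of these was 0.263 or more. *Syt6*, a synaptotagmin, had log2 fold changes of 0.66 in NT and -0.15 in HT. That no gene was called does not show that the effects were equal. The lists with opposite medians were those of olfactory bulb, 1.19 in NT and -0.75 in HT, and of neuroblasts, 0.84 and -0.38, together with 3 lists whose medians lay nearer 0, neuronal injury (0.27 and -0.07), the respiratory chain (-0.11 and 0.06) and red blood cells (0.04 and -0.22).

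**Figure D5:**
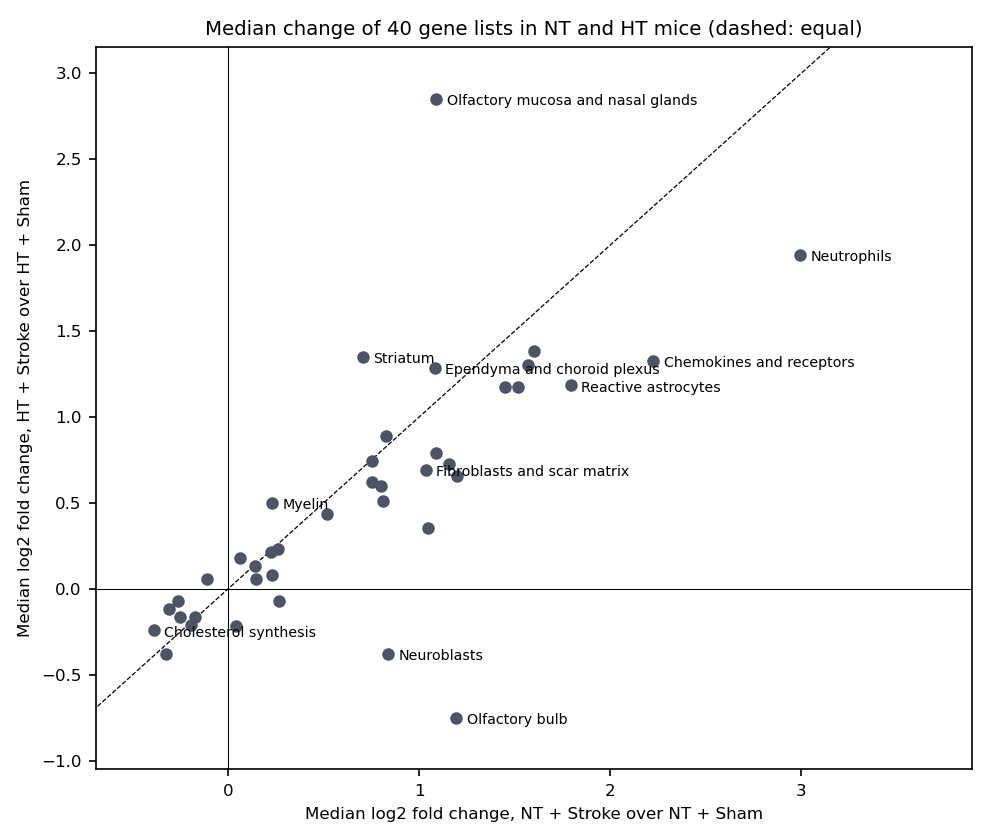
Median log2 fold change of 40 gene lists in HT mice (vertical axis) against that in NT mice (horizontal axis), 1 point a list, with equality as a dashed line. Most immune and glial lists lie above 0 on both axes and below the dashed line, whereas the olfactory bulb list is at 1.19 in NT and -0.75 in HT.

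With 12 libraries on each side small shifts could be called. Of the 4362 calls, 2002 were smaller than 0.3 on the log2 scale. The smallest *P* among these belonged to *Ube2ql1*, *Ipo5*, *G6pdx*, *Slc44a1* and *Atp6v1b2*. *Ipo5*, a nuclear import receptor, was 108 to 131 CPM (median 117) in the sham libraries and 84.3 to 109 CPM (median 98.7) in the stroke libraries (log2 fold change -0.25, SE 0.0382, adjusted *P* = 3.69e-05). *G6pdx*, which feeds the pentose phosphate pathway, was 26.2 to 33.2 CPM (median 29.4) in the sham libraries and 31.1 to 38.7 CPM (median 36.5) in the stroke libraries (log2 fold change 0.28, SE 0.0441, adjusted *P* = 4.33e-05). *Slc44a1*, a choline transporter, rose by 0.27, and *Atp6v1b2*, a subunit of the vacuolar proton pump, fell by 0.25. In each of these genes 9 to 12 of the 12 stroke libraries lay beyond all sham libraries. A test against a fold change of 1.5 called 381 genes, all higher.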

How the data were processed

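Poly(A) RNA from coronal brain sections containing prefrontal cortex was sequenced in 24 libraries. The submitters' processing notes name featureCounts 1.5.0-p3 and DESeq2 1.20.0, and the aligner settings and the strand of counting are not given in the sources used here. The 4 deposited tables each compare 2 groups and hold raw read counts per gene, made by the authors, along with FPKM values that the authors computed from counts and gene length. They were joined by gene identifier, with genes missing from a table set to 0. In 48 comparisons of a library between tables, 0 differed. Another 48 per-sample columns of normalized values were not used, nor were the authors' fold changes and *P*-values.

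Genes were kept by edgeR's filterByExpr (minimum count 10, minimum total 15). Libraries were scaled by TMM, and an additive model of infusion and surgery was fitted by edgeR 4.0.16 (robust quasi-likelihood, R 4.3.3) and *P*-values were adjusted by Benjamini-Hochberg over the tested genes. The surgery term is reported, the interaction was tested in a model with both terms and their product, and NT and HT mice were fitted separately. Alternatives used DESeq2 1.42.0, limma 3.58.1 on log2(FPKM + 1), other scalings, filters and thresholds, regional scores as covariates, a replicate block and each library left out. Fits without 3 libraries together, and with the striatal score alone, were chosen after seeing the data. Scripts were tested on simulated data.

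The genes, the 40 lists and their markers were chosen with earlier results of these data known. Named genes were the 12 largest increases and decreases without overlap (average log2 CPM above 1), and up to 4 tested members of each list. Members were taken by the smallest *P* in the direction with more calls, called or not, and a called member of the other direction was added. The 5 smallest *P* among changes under 0.3, the 5 smallest interaction *P*, and *Gfap*, *Cd68*, *C3*, *Rbfox3*, *Slc17a7* and *Gad1* were named too. Other list members, and *Ccl12*, are named for their known role after their values were seen. Total counts of 15922919 to 24865998 per library limit the precision of genes with few counts. A few genes that the rule selects are not reported here.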

Additional observations from a re-analysis of the deposited data

Results flagged for a closer look

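The 169 genes given with values and the library totals were screened for a library far from the other 5 of its group. In 680 groups of 6 libraries 65 such values were found, where chance flags about 1 in 20 groups, which would be 34, and genes that move together are not independent. The screen measures the gap between 1 library and the next, so 2 libraries of a group that are low together hide each other. The libraries labelled HT + Stroke 1 and HT + Stroke 6, at 19.7 and 18.8 CPM of *Cd68*, were not flagged for that gene for this reason. The library labelled HT + Sham 6 gave 33 of the 65 values, 32 high and 1 low. Among the high values, *Abca1* was 36.6 CPM against 15.7 to 20.8, *Anpep* was 11.1 CPM against 4.18 to 6.23 and *Atf3* was 3.01 CPM against 0.483 to 1.07. *Bst2* was 13.4 CPM against 5.25 to 7.85, *C1qb* was 144 CPM against 62.9 to 92.9 and *C3* was 10.5 CPM against 0.0593 to 1.73. *C4b* was 85.2 CPM against 25.4 to 39.7, *Ccl5* was 1.6 CPM against 0.116 to 0.474 and *Cd68* was 27.2 CPM against 11 to 13.6. *Cd74* was 48.4 CPM against 6.37 to 15.9, *Clec7a* was 4.41 CPM against 0.0617 to 0.664 and *Col1a1* was 60.0 CPM against 8.62 to 21.7. *Cst7* was 2.81 CPM against 0 to 0.321, *Dcn* was 28.6 CPM against 10.2 to 15.9 and *Fcgr1* was 5.21 CPM against 2.62 to 3.38. *G6pdx* was 33.2 CPM against 28.2 to 29.96, *Gfap* was 550.0 CPM against 163 to 242 and *H2-Aa* was 19.2 CPM against 2.36 to 7.79. *H2-D1* was 119 CPM against 59.1 to 72.4, *Hmox1* was 13.6 CPM against 5.4 to 7.59 and *Itgb2* was 10.5 CPM against 4.53 to 6.52. *Lcn2* was 8.82 CPM against 0.362 to 1.3, *Lgals3* was 16.1 CPM against 0.406 to 1.15 and *Lum* was 8.77 CPM against 2.05 to 3.38. *Mmp13* was 0.251 CPM against 0 to 0.0604, *Mmp3* was 1.65 CPM against 0 to 0.237 and *Ms4a7* was 2.36 CPM against 0.429 to 1.15. *Slc11a1* was 8.62 CPM against 2.09 to 3.02, *Sparc* was 299.9 CPM against 190.3 to 231 and *Steap3* was 22.5 CPM against 8.95 to 13.7. *Steap4* was 1.65 CPM against 0.356 to 0.643 and *Tgm1* was 1.6 CPM against 0.0581 to 0.432. The low value was that of *Gap43*, 271 CPM against 345 to 384.

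NT + Sham 4 gave 9. *Aqp4* was 71.1 CPM against 47.3 to 55.3, *Cd68* was 7.57 CPM against 11.5 to 13.3 and *Frmd8* was 23.3 CPM against 27.8 to 29.6. *Igkc* was 2.85 CPM against 0.107 to 0.795, *Ipo5* was 131 CPM against 116 to 119 and *Nrip1* was 32 CPM against 23.1 to 25.8. *Slc1a2* was 1514 CPM against 1298 to 1374, *Syt1* was 1291 CPM against 1086 to 1139.5 and *Tnr* was 98.3 CPM against 57.9 to 69.8.

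The remaining 23 were spread over 12 libraries. In HT + Sham 4, *Vip* was 47.6 CPM against 33.8 to 36.3. In HT + Sham 5, *Cnp* was 405 CPM against 282 to 322. In HT + Stroke 1, *Arc* was 121 CPM against 43.9 to 58.8 and *Cldn11* was 146 CPM against 161 to 168. In HT + Stroke 3, *Bpifa1* was 53.6 CPM against 0.057 to 11.7, *Mbp* was 2599 CPM against 3055 to 3250.2 and *Omp* was 161 CPM against 1.03 to 53.4. *Steap4* was 24.9 CPM against 0.513 to 9.03. In HT + Stroke 5, *Syt6* was 49.1 CPM against 35.8 to 39.1. In NT + Sham 1, *Abca1* was 14.2 CPM against 17.2 to 18.2 and *Vip* was 35.8 CPM against 40.3 to 41.8. In NT + Sham 2, *Bpifa1* was 2.12 CPM against 0.0504 to 0.748, *Cst7* was 0.435 CPM against 0 to 0.161 and *Mmp3* was 0.218 CPM against 0 to 0.0577. In NT + Sham 3, *Fos* was 29.3 CPM against 7.53 to 14.5. In NT + Sham 5, *Cd163* was 0.935 CPM against 2.47 to 3.33 and *Ttr* was 8.79 CPM against 0.107 to 1.28. In NT + Stroke 1, *Atp6v1b2* was 458 CPM against 499 to 504, *Gap43* was 246 CPM against 300.5 to 316 and *Igkc* was 46.6 CPM against 3.85 to 12.3. *Jchain* was 9.26 CPM against 1.44 to 3.73. In NT + Stroke 3, *H2-DMa* was 28.1 CPM against 17.4 to 20.8. In NT + Stroke 4, *Pdgfra* was 22 CPM against 24.5 to 25.3.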

How the results depend on the processing

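The count of genes called for the stroke main effect was 2683 at an adjusted *P* under 0.01, 381 against a fold of 1.5, and 936 with olfactory bulb and striatal scores as covariates. Leaving out each library in turn gave 3944 to 4858. Without scaling 3807 genes were called and 70.7% of them were higher, against 54.6% with TMM. In HT mice the count was 905 by DESeq2, 67 without scaling, 179 with every gene of at least 1 count, 1437 without the 3 libraries whose glial values went against their labels, and 9 to 533 with 1 library left out. For the interaction DESeq2 called 22 genes, and 1812 had an unadjusted *P* under 0.05. *Gpr6* changed sign, to -0.0088 with both regional covariates. It is a member of the striatal list, so the striatal score contains it, and that fit cannot separate its change from the score. Over 144 named genes and 40 settings, 5447 of 5729 values kept their direction and their side of the threshold, 281 lost the call and 1 changed sign. Most settings left out a single library, and the lost calls were unevenly spread. The test against a fold of 1.5 lost 96 of the 144 calls, and the fit with both regional covariates lost 56.

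Equal replicate numbers showed no strong pairing of the libraries. The median correlation was 0.062 for same-numbered and 0.0023 for different-numbered pairs. Of 36 same-numbered pairs 14 correlated above 0.1, the lowest at -0.40, and 6 libraries correlated best with their own number. With the replicate number as a block 4270 genes were called for the main effect and 0 for the interaction. The striatal score differs between sham and stroke libraries, and its part in the results beyond the covariate fits was not tested. Dissection and lesion size were not measured here, and genes with few counts have wide errors.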
